A study of Homo sapiens with 4 samples.

Results

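RAD21 peaks in the first introns of protein-coding genes were described from the peak list of 1 chromatin immunoprecipitation (ChIP-seq) library of wild-type HCT116 cells. A peak was taken as a first-intron peak when its summit, the position of the highest signal, lay in intron 1 of the Ensembl canonical transcript of a protein-coding gene. The summit also had to lie in no exon of any transcript, and more than 1 kb from every transcript 5′ end and from every 3′ end of a protein-coding gene (GENCODE version 44, chromosomes 1 to 22). Peak height played no part in this choice. Of the 55201 peaks on chromosomes 1 to 22, 2888 (5.23%, 95% Wilson interval 5.05–5.42%) met the rule, and the whole list held 56853 peaks. The samples of the study were 4 libraries, 1 for each combination of cells, treatment and library type (RAD21 ChIP or Input). HCT116 cells were established from a human colon carcinoma, and the wild-type cells were left untreated. HCT116_RAD21_AID is a line derived from HCT116 as 1 clone, in which RAD21 carries the mAID degron and the plant ubiquitin ligase subunit OsTIR1 is expressed. RAD21 ChIP libraries of these cells, untreated or kept for 6 h with the auxins IAA and α-NAA (500 μM of each), were not analysed here, and neither was the Input of the auxin-treated cells. There were no replicates against which a difference could be judged, and all intervals below cover counting error only.

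RAD21 is the subunit that closes the ring of cohesin, a protein complex that extrudes chromatin loops in interphase and holds sister chromatids together after replication. Moving cohesin is halted by CTCF, a zinc-finger protein that binds a directional DNA sequence, so that cohesin accumulates at CTCF sites on the side to which the N-terminus of CTCF points. The first intron is usually the longest intron of a gene, begins close to the promoter, and is a frequent place of enhancers. An intron is transcribed whenever its gene is, and RNA polymerase can move cohesin along the gene.

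The 4 highest first-intron peaks with a CTCF core consensus (12 letters, at most 1 mismatch, within 50 bp of the summit) are shown first, because they carry the sequence feature most frequent at first-intron summits. Each sequence covers 50 bp to either side of the summit and is written 5′ to 3′ on the plus strand of GRCh38, with the consensus match in capitals. The stretches lie at chr15:88834438-88834538 (ACAN), chr20:32653027-32653127 (C20orf203), chr16:57649149-57649249 (ADGRG1) and chr20:58481638-58481738 (APCDD1L).
ACAN: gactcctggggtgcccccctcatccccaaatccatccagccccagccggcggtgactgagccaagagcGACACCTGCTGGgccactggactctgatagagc
C20orf203: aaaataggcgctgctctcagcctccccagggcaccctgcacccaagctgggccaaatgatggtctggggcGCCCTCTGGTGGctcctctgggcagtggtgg
ADGRG1: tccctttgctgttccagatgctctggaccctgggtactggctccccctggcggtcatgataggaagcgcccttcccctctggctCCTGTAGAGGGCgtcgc
APCDD1L: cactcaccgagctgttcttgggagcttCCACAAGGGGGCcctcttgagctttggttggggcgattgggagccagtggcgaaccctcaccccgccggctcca
The matches in ACAN and C20orf203 were read on the minus strand and appear as reverse complements, and those in ADGRG1 and APCDD1L were read on the plus strand. The match was exact in C20orf203 and had 1 mismatch in the other genes. Along the consensus, the summit lay 23.5 bp to the 3′ side of its centre in ACAN, 25.5 bp in C20orf203 and 17.5 bp in APCDD1L, while in ADGRG1 it lay 39.5 bp to the 5′ side. Matches with more than 1 mismatch were not marked, so the marked match in ADGRG1 need not be the CTCF-like sequence nearest to the summit.

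As a contrast, the 4 highest first-intron peaks without this consensus but with the motif TGANTCA of AP-1, a factor found at many enhancers, are shown with that motif in capitals. They lie at chr20:4227188-4227288 (ADRA1D), chr20:19785028-19785128 (RIN2), chr12:6335787-6335887 (TNFRSF1A) and chr17:45949181-45949281 (MAPT), again on the plus strand of GRCh38.
ADRA1D: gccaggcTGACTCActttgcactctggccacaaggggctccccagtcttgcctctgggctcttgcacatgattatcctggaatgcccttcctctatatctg
RIN2: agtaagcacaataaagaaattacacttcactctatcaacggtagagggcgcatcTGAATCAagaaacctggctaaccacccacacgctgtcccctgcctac
TNFRSF1A: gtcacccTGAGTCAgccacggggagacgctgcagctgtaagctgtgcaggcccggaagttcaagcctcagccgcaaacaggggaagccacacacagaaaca
MAPT: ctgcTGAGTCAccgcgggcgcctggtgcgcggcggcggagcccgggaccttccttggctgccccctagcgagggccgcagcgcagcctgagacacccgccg
CTCF-like matches with more mismatches than the rule allowed were not marked here either. A peak without the consensus may therefore still hold a CTCF-like sequence. The RIN2 sequence, for example, holds gtagagggc, the letters that end the marked match in ADGRG1. The fold enrichment of the AP-1 peaks shown was 13.0 in ADRA1D, 11.1 in RIN2, 9.68 in TNFRSF1A and 9.62 in MAPT. All 4 were below the 59.9 to 73.6 of the 4 peaks with the CTCF consensus shown above. However, they were the highest of only 65 peaks, and those with the consensus were the highest of 1186. The highest members of groups of such unequal size cannot be compared, so nothing about either motif follows from this difference. Without either motif, the fold enrichment still reached 66.7 in BCL11B and 64.2 in XKR6.

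First introns held fewer RAD21 peaks than the rest of the genome for the sequence they offered. The sequence that met the rule for the summit amounted to 223.3 Mb, or 8.10% of the sequence of chromosomes 1 to 22, and carried 12.9 peaks per Mb (95% Poisson interval 12.5–13.4). Later introns of canonical transcripts, under the same limits on exons and gene ends, carried 15.1 peaks per Mb (10444 peaks), intergenic sequence 17.2, and the autosomes as a whole 20.03. Promoters, defined as sequence within 1 kb of any transcript 5′ end, carried 65.5 peaks per Mb.

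The difference from later introns depended on which property of the introns was held equal. The ratio of the density in first introns to that in later introns was 0.854 (95% interval 0.819–0.890) as measured. When later introns were weighted to the intron lengths of first introns, it was 0.994 (0.952–1.04). When they were weighted to the distances from the start site, the ratio was 0.756 (0.721–0.794), and with both weightings together it was 0.896 (0.834–0.962). The density in introns of the same length was thus close in both classes. It was 22.1 peaks per Mb (18.7–26.0) in first introns under 5 kb and 20.7 (19.97–21.5) in later introns of that size. In introns over 200 kb it was 9.61 (8.62–10.7) and 8.73 (7.96–9.55). At equal distances from the start site the classes differed beyond 5 kb. Between 1 and 2 kb the density was higher in first introns (27.1, 23.7–30.9) than in later introns (21.2, 14.5–29.9), and between 2 and 5 kb lower (17.9 and 21.0), with overlapping intervals in both. Between 10 and 20 kb, first introns carried 11.8 peaks per Mb (10.7–13.0) and later introns 16.8 (15.7–18.0).

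Within first introns, peaks were densest next to the promoter. Between 1 and 2 kb from the start site, 226 summits gave 27.1 peaks per Mb (23.7–30.9), between 2 and 5 kb the density was 17.9 (16.3–19.7), and beyond 10 kb it stayed between 8.05 and 11.9. This gradient mixes position with intron length, since only long introns reach the far distances. Summits just inside and just outside the limit of the rule were set side by side. The 63 members within 100 bp beyond the limit of 1 kb had a median fold enrichment of 5.07 (quartiles 3.26 and 9.54). The 94 summits in first introns within 100 bp short of it had 3.89 (2.90 and 7.48). These ranges overlapped, and the share with a CTCF consensus was 28.6% inside and 29.8% outside. Peaks were also denser toward the other end of the intron. In the last 1 kb before exon 2 the density was 21.0 peaks per Mb (17.9–24.5), and more than 50 kb from it 10.6 (9.80–11.4). This contrast likewise mixes position with intron length, since only introns over 50 kb reach the farthest distances. Later introns had 21.0 and 10.9 at the same distances from their 3′ ends.

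The profile along long first introns was lopsided in its sequence content as well. Introns over 20 kb were cut into 10 equal parts from the 5′ to the 3′ end. In first introns, the first part carried 18.6 peaks per Mb (16.6–20.9), the third part 9.29 (7.96–10.8) and the last part 13.6 (11.9–15.5). The share of peaks with a CTCF consensus was 35.1% in the first part, 27.9% in the second and 50.0% in the last. Later introns over 20 kb showed a flatter profile, with 10.99 to 13.7 peaks per Mb and a consensus in 39.7% to 47.1% of the peaks. Peaks with a fold enrichment of 10 or more were least dense in the third part of first introns, at 1.24 per Mb (0.788–1.86), and reached 4.03 (3.10–5.16) in the first and 3.37 (2.56–4.36) in the last part.

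First-intron peaks were of moderate height. MACS2 gives at each summit the fold enrichment, which divides the number of ChIP fragments by a local background after 1 is added to each. The median fold enrichment of first-intron peaks was 5.30 (quartiles 3.51 and 9.11, range 1.39 to 73.6), with a median of 44 fragments at the summit (quartiles 27 and 78) and a median width of 408 bp. Later-intron peaks had a median fold of 6.16 and 52 fragments, promoter peaks 4.19 and 35, and intergenic peaks 6.09 and 56. A fold enrichment of 10 or more was reached by 629 first-intron peaks (21.8%, 20.3–23.3%), against 27.4% of all autosomal peaks and 28.5% (27.6–29.4%) of later-intron peaks. The lowest local background, 5.90 fragments, is the genome-wide mean, and 165 first-intron peaks (5.71%) had at least 2 times this value.

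The CTCF core consensus was the sequence most clearly tied to first-intron summits. It was present within 50 bp of 1186 summits (41.1%, 39.3–42.9%), against 38.5% of all autosomal peaks and 46.3% (45.3–47.2%) of later-intron peaks. In windows of the same size 5 kb to either side of the first-intron summits, it was present in 0.952% (0.732–1.24%). The share was 8.65% in the lowest decile of fold enrichment, 50.2% in the sixth and 66.1% (60.5–71.3%) in the highest. Peaks with the consensus had a median fold of 7.28 and those without it 4.27, and the 339 peaks with an exact match had 8.31. When later-intron peaks were weighted to the fold enrichments of first-intron peaks, 42.9% (42.0–43.8%) of them had the consensus. With equal heights the share in first introns was thus 41.1% against 42.9%, and these intervals overlapped.

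**Figure D1:**
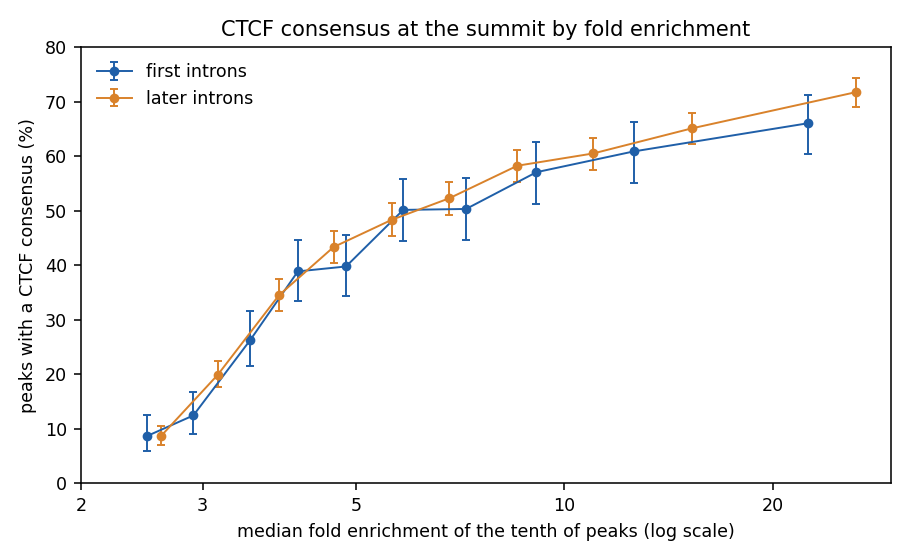
Share of peaks with a CTCF consensus within 50 bp of the summit (%), for each decile of fold enrichment placed at its median (log scale), in first introns (blue) and later introns (orange); bars are 95% Wilson intervals. In first introns the share goes from 8.65% in the lowest to 66.1% in the highest decile, and the later-intron curve runs close to it.

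The share with the consensus was lowest near the promoter. Between 1 and 2 kb from the start site it was 26.1% (20.8–32.2%), which is close to the 24.4% of promoter peaks. It was 43.1% (38.5–47.8%) between 2 and 5 kb, 36.2% (31.5–41.0%) between 5 and 10 kb and 49.1% (40.1–58.2%) beyond 200 kb. The GC box GGGCGG, a motif of CpG-rich promoters, took the opposite course. It was found (on either strand, as all motifs here) within 50 bp of 16.4% (12.1–21.8%) of summits between 1 and 2 kb, against 2.21% in windows 5 kb away, and of 1.75% of summits beyond 200 kb. Over all first-intron summits it was found at 6.61% (5.76–7.58%), and in the windows 5 kb away at 2.995% (2.59–3.47%). It was found at 9.19% of all autosomal summits and 21.6% of promoter summits. The 32 later-intron summits between 1 and 2 kb had the CTCF consensus at 34.4% (20.4–51.7%) and the GC box at 15.6%.

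Motifs of other enhancer-binding factors were found within 50 bp of first-intron summits about as often as in the windows nearby, and AP-1 somewhat more often within 100 bp. AP-1 TGANTCA was found at 3.15% (2.57–3.85%) of summits and in 3.12% (2.70–3.60%) of the windows 5 kb away. The TEAD motif GGAATG was found at 5.85% (5.05–6.77%) and 5.64% (5.08–6.27%), and the forkhead motif TGTTTAC at 1.14% (0.815–1.60%) and 1.63% (1.33–1.99%). Among the 1702 peaks without the CTCF consensus, AP-1 was found at 3.82% (3.01–4.84%) of summits and in 3.35% (2.80–4.01%) of the windows. Within 100 bp, AP-1 was found at 6.99% (6.12–7.98%) of all first-intron summits and in 5.82% (5.24–6.45%) of the windows, and without the CTCF consensus at 7.99% (6.80–9.38%) and 6.23% (5.46–7.09%), with intervals that overlapped in both cases. A match to these letters is no proof of binding, and a missing match says nothing about the factor.

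The consensus pointed along the gene about as often as against it. It lay on the strand of the gene in 565 of 1186 first-intron peaks (47.6%, 44.8–50.5%), and in 48.1% (43.3–53.0%) of those with a fold enrichment of 10 or more. In later introns the share was 47.1% (45.7–48.5%) over all peaks and 42.9% (40.7–45.1%) at a fold enrichment of 10 or more. The intervals of the classes overlap, and a difference between them was not detectable with the number of first-intron peaks. Among 219 pairs of neighbouring consensus peaks in the same first intron, 57 (26.0%, 20.7–32.2%) pointed toward each other, 56 (25.6%, 20.2–31.7%) pointed apart and 106 (48.4%, 41.9–55.0%) pointed the same way. Of 495 pairs in later introns, 20.2% (16.9–24.0%) pointed toward each other, 26.7% (22.96–30.7%) apart and 53.1% (48.7–57.5%) the same way, and all 3 intervals overlapped those of first introns.

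The RAD21 summit was displaced to the 3′ side of the consensus. The median displacement from the centre of the consensus was 10.5 bp (quartiles −2.5 and 20.5), and 841 of 1186 summits (70.9%, 68.3–73.4%) lay on the 3′ side. At a fold enrichment of 10 or more the share was 78.9% (74.7–82.6%). It was 69.2% (65.3–72.9%) where the consensus lay on the gene strand and 72.5% (68.8–75.8%) where it lay on the other strand. The displacement thus followed the direction of the consensus and was of like size for both directions of the gene. Later introns showed 73.2% (71.9–74.4%).

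Peaks were spread over many genes. Of 12468 first introns with eligible sequence, 1955 (15.7%) held at least 1 peak, and 1422 of these held exactly 1. There were 322 with 2 peaks, 114 with 3, 44 with 4, 53 with 5 or more and 10 with 10 or more. The share of introns with a peak was 2.12% (1.69–2.66%) where the eligible sequence was at most 2 kb and 87.1% (79.2–92.3%) where it was over 200 kb. First-intron summits lay at a median of 18486 bp from the start site, and the farthest lay at 813579 bp. The median gap between neighbouring peaks of the same first intron was 14110 bp (964 gaps). Since transcripts overlap, 879 members (30.4%) also lay in a later intron of another transcript, and 46 lay in the first introns of more than 1 gene.

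Weighted to equal lengths, genes with a first-intron peak had a promoter peak less often than genes without. Of the 1955 genes with a first-intron peak, 738 (37.7%, 35.6–39.9%) also had a RAD21 peak within 1 kb of the canonical start site. Among genes without a first-intron peak, weighted to the same eligible lengths, the share was 42.3% (40.3–44.2%), and without weighting it was 35.96%. The direction was not the same at all lengths. Where the eligible sequence was at most 2 kb, the share was 39.7% (29.3–51.2%) with and 31.4% (29.9–33.0%) without a first-intron peak. The largest gap was found where the eligible sequence was between 50 and 100 kb, with 39.4% (34.3–44.6%) and 53.1% (48.0–58.1%). In every other length class the intervals overlapped, for example with 44.3% and 45.1% between 20 and 50 kb.

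The highest first-intron peak lay in ACAN, which encodes the cartilage proteoglycan aggrecan. It spanned chr15:88834032-88834894 and had a fold enrichment of 73.6, from 507 fragments over a background of 5.90. Its summit lay 31052 bp from the start site and 1711 bp before exon 2, at 94.7% of the intron. The peak of C20orf203 (fold 67.6, 515 fragments) lay at 94.9% of its intron, 1095 bp before exon 2. The peak of ADGRG1, an adhesion G protein-coupled receptor (fold 65.2, 449 fragments), lay at 95.1%, 1053 bp before exon 2. All 3 were thus strong peaks near the 3′ end of the intron.

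BCL11B, a zinc-finger transcription factor needed for T-cell development, held the highest first-intron peak without a CTCF consensus (chr14:99266289-99267074, fold 66.7, 487 fragments), 5475 bp from the start site. The peak of APCDD1L, which carried the consensus, had a fold of 59.9 and 412 fragments and lay 33711 bp from the start site. MARCKS, an actin-binding substrate of protein kinase C, has a first intron of only 1835 bp, and its peak (fold 59.7) lay 1742 bp from the start site and 595 bp before exon 2. GALNT15, an enzyme that starts mucin-type O-glycosylation (fold 59.3), and PDGFRA, a receptor tyrosine kinase for platelet-derived growth factor (fold 57.1), held their peaks near the start site, at 3847 bp and 4163 bp. The PDGFRA peak was also the widest of the 10 highest, with 2040 bp. PXN, the focal adhesion adaptor paxillin, had a fold of 55.9 at 37199 bp, which is 89.9% of its intron. Of the 10 highest peaks, 8 carried the consensus, on the gene strand in C20orf203 and ADGRG1 and on the opposite strand in the other 6.

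XKR6 on chromosome 8 held the peak farthest from its start site among the 10 highest, at 273214 bp in an intron of 275745 bp. It had a fold of 64.2 from 442 fragments, no consensus within 50 bp, and lay 3788 bp before exon 2.

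Of the first introns with 10 or more peaks, 8 are described here, which were of unlike kinds. Exactly 10 peaks were held by 4 introns, of which SDK2 and KAZN were taken because their eligible sequence was the shortest. The others were KIRREL3 (median fold 4.38, highest 37.4, 1 consensus) and KCNIP4 (6.69, 15.8, 4 consensus matches). The first intron of PDE4D, a cyclic AMP phosphodiesterase, spans 677.2 kb on chromosome 5 and held 15 peaks, 9 of them with a CTCF consensus (5 on the gene strand and 4 opposite). Their fold enrichment ran from 2.89 to 21.3 with a median of 6.96, and they lay between 79833 and 675072 bp from the start site. The 2 highest, with folds of 21.3 and 14.2, lay 83567 and 79833 bp from it. No member lay within the 79833 bp next to the start site.

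NTM, a neural cell adhesion molecule, held 13 peaks in an intron of 540.7 kb, 6 with the consensus, of which 5 lay on the gene strand. Its 3 highest peaks lay close together, with folds of 29.0 at 303520 bp, 20.6 at 317538 bp and 25.5 at 324376 bp, and the latter pair carried the consensus on the gene strand. KAZN, which encodes the cell junction protein kazrin, held 10 peaks in 361.5 kb, with a median fold of 5.88 and the highest at 19.6. Its 3 consensus matches lay on the gene strand.

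In RBFOX3, the gene of the neuronal marker NeuN, 12 peaks lay in an intron of 128.2 kb, and none had the consensus. Their folds ran from 2.39 to 6.23 with a median of 3.15, and 11 of them were below 4. CMIP likewise held 12 peaks in 162.0 kb with a median fold of 3.07 and 1 consensus. CBFA2T3, a transcriptional corepressor, held 11 peaks in 75 kb, or 174 per Mb of eligible sequence, with a median fold of 2.77 and a highest fold of 5.18. These dense introns were thus made up mostly of low peaks, as the median over all first-intron peaks was 5.30. The median GC content around the summits was 61.4% in each of RBFOX3, CMIP and CBFA2T3, against 54.5% over all first-intron peaks and 41.6% in PDE4D.

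ADARB2, a brain member of the family of RNA-editing adenosine deaminases, held 11 peaks over 357.9 kb without a consensus, with folds from 2.46 to 12.3. SDK2, a cell adhesion molecule of retinal synapses, held 10 peaks, of which 1 stood out with a fold of 35.9 at 48691 bp, while the next highest had 7.83. Of these 8 genes, CMIP alone also had a peak within 1 kb of its canonical start site.

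At the other extreme stood long first introns with no peak that met the rule. The longest eligible sequence without a peak was that of RALYL on chromosome 8, with 341.2 kb, for which 4.41 peaks would have been met at the mean density of first introns. First introns over 200 kb carried only 9.61 peaks per Mb, so this count is too high for introns of like length. CDH12, a neural cadherin, followed with 336.2 kb, CNTN5, a neural contactin, with 300.9 kb, AUTS2, a regulator of neural development, with 293.2 kb, and MECOM, a transcription factor of blood stem cells, with 274.1 kb. A count of 0 is compatible with up to 3 peaks (a one-sided limit, unlike the two-sided intervals of the other densities), which is 8.79 peaks per Mb in RALYL and 10.9 in MECOM. These genes were picked for holding no peak, so their counts of 0 are a description. MECOM held 2 peaks in its first intron that were left out by the limits on exons and gene ends, and it also had a promoter peak.

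In all, 5 groups of genes were looked up, to be read against the 15.7% of all eligible first introns with a peak and their 12.8 peaks per Mb. Among genes of cohesin, its loader and release factors and CTCF, 1 of 10 eligible first introns held a peak. This was PDS5B, a regulator of cohesin release, with a fold of 3.61 from 30 fragments at 53256 bp. The introns of NIPBL, which loads cohesin (73.5 kb eligible), and STAG1, a cohesin subunit (116.4 kb), held none. Among WNT pathway genes, whose pathway is active in HCT116 cells through a mutant β-catenin, 3 of 16 held 1 peak each. These were BCL9L, a coactivator of β-catenin (fold 6.55), DVL1, a transducer of the signal from the receptor (5.95), and LRP5, a WNT coreceptor (2.80).

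Among intestinal and epithelial genes, 3 of 18 eligible first introns held 6 peaks, or 35.3 per Mb (13.0–76.8). HNF4A, a transcription factor of intestine and liver, held 2, and the higher of them (chr20:44388396-44389090) had a fold of 53.9 from 383 fragments, which exceeded 99.3% of all autosomal peaks. It lay 33019 bp from the start site and had no CTCF consensus within 50 bp. GRHL2, a transcription factor of epithelia, held 3 peaks, the highest with a fold of 5.66, and CDX1, a homeobox factor of the intestine, held 1 with a fold of 4.19.

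Among genes of blood, nerve, muscle and endothelium, 6 of 20 eligible first introns held 17 peaks, 12 of them in RBFOX3. RBFOX1, a neuronal splicing factor, held 1 with a fold of 11.4. SNAP25, a protein of synaptic vesicle fusion, held 1 with 7.68, and NRXN3, a synaptic adhesion molecule, 1 with 5.22. None of the 17 peaks had a CTCF consensus, against 41.1% of all first-intron peaks, and 12 of them share 1 intron. The 17 were also low, with a median fold of 3.33. Of all first-intron peaks with folds of 3.20 to 3.82, 26.3% had the consensus. The share was 12.5% at folds of 2.73 to 3.19 and 8.65% at folds of 1.39 to 2.72. Most of the RBFOX3 peaks had folds of at most 3.19.

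In very long genes at common fragile sites, the density of first-intron peaks was below that of first introns over 200 kb as a whole. Of 18 eligible first introns, with a median eligible length of 252.5 kb, 10 (55.6%) held 22 peaks, or 5.26 per Mb (3.30–7.97). First introns over 200 kb as a whole carried 9.61 per Mb. Of all first introns with over 200 kb of eligible sequence, 87.1% held a peak. The share was 66.1% with 100 to 200 kb and 30.1% with 20 to 50 kb. The 18 introns were of mixed length, and several without a peak had only 4.84 to 49.6 kb eligible. Their share was therefore not compared at like length. MAGI2, a scaffold protein of cell junctions, held 4 peaks, the highest with a fold of 9.33. ERBB4, a receptor tyrosine kinase, also held 4, the highest with 6.52. CSMD1 held 3, the highest with 13.3, and PTPRG, a receptor tyrosine phosphatase, held 2, of which the higher had 15.7 and lay 3165 bp from the start site. CNTNAP2 held 1 peak in 651.0 kb of eligible sequence. Of the 22 peaks, 13 (59.1%) had the CTCF consensus, against 41.1% of all first-intron peaks and 45.2% of those in first introns over 200 kb, and 22 peaks are too few to set these shares apart.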

How the data were processed

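The authors sequenced paired reads, trimmed them with Trimmomatic 0.39, aligned them to GRCh38 with Bowtie2 2.5.3, removed duplicates with Picard and called peaks on the wild-type library alone with MACS2 2.2.9.1 against Input at a q-value of 0.05. Which Input served as its control is not given in the sources used here. The deposited peak list gives a whole-number score (not used), a fold enrichment (a ratio), the −log10 of the p-value and of the q-value, and the summit offset. It holds no read totals, so the sequencing depth is unknown. The number of ChIP fragments at a summit was solved for from the fold enrichment and −log10 p-value under the Poisson model of MACS2, and came out whole (within 0.05) for all peaks but 14, none of them members.

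Summits were classed with GENCODE version 44. A position near a 5′ end was taken as promoter, then exon, gene 3′ end, first intron, later intron, other genic or intergenic. Densities are peaks per Mb of sequence of the same class without assembly gaps, with 95% Poisson intervals, and shares have 95% Wilson intervals. Densities of later introns were weighted by strata of intron length and distance. For CTCF, the 12-letter core consensus with at most 1 mismatch was sought up to 50 bp from the summit on either strand, with windows 5 kb to either side as control. Fragment recovery, motif search and membership were tested on simulated data or by a separate computation. The named genes were the 10 highest peaks, the 8 introns with the most peaks (ties at 10 peaks by the shorter eligible sequence, a choice made in the computation and not in the plan), the 5 longest without, and up to 4 genes per list. NIPBL, STAG1, CNTNAP2, KIRREL3 and KCNIP4 were named after their values were seen. The division along introns and the weighting by fold enrichment were added after the data were examined. Members and lists were chosen with earlier results of these data known. Alternatives were stricter q-values, a limit of 2 kb, introns 1 of any transcript, a fold of at least 2, whole peaks, and other motif or promoter limits. No test was made. Computations used scipy 1.17.1, numpy 2.4.6, pandas 2.3.3 and matplotlib 3.10.9 under Python 3.11.15.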

Additional observations from a re-analysis of the deposited data

How the results depend on the processing

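Of 52 alternative values, 29 stayed within the interval of the value reported (for the number of peaks, within 1.5 times it). With intron 1 of any transcript, the number of first-intron peaks was 6949, their share of autosomal peaks 12.6%, their median fold 5.72, their density 14.3 per Mb, the ratio to later introns 0.911 and the share with the CTCF consensus 43.4%. At a q-value of at most 0.001, the median fold was 5.83, the density 11.7 per Mb, the share with the consensus 44.9% and the share of genes with a promoter peak 34.2%. At a q-value of at most 1e-05, these values were 6.41, 10.4 per Mb, 48.9% and 26.8%, and the density ratio was 0.810. With a distance of 2 kb, the share of autosomal peaks was 4.38%, the density 11.97 per Mb, the density ratio 0.817 and the share with the consensus 43.1%. The share with the consensus was 11.7% for exact matches and 43.7% within 100 bp, and AP-1 was found within 100 bp of 6.99% of summits and in 5.82% of the windows 5 kb away. Promoters taken as 2 kb gave a share of 48.4%. The causes were not tested, apart from the wider or narrower limits themselves. The unweighted density ratio stayed below 1 under these alternatives, while weighted by intron length it was 0.994 (0.952–1.04), and the share of the consensus on the gene strand stayed within its interval. No paired analysis was possible because there was a single RAD21 ChIP library per condition. Depth was unknown, and 1 library gives no replicate error.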

Other observations

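First-intron peaks were unevenly spread over the chromosomes. The density per Mb of eligible first-intron sequence was highest on chromosomes 16 (21.8, from 138 peaks), 17 (20.9, from 156) and 19 (19.6, from 108), and lowest on chromosome 6 (9.29, from 120), with a median of 12.9 over the 22 autosomes. Chromosome 17 had the lowest median fold enrichment of the 22, at 4.02, while chromosome 13, with 10.2 peaks per Mb, had the highest, at 6.96, and chromosome 19 had 6.16. The cause was not tested.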
